A study of Drosophila melanogaster with 6 samples.

Results

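Double H3.3 K27R males were compared with H3.3B K27R males, to ask which RNAs differed once lysine 27 was substituted in the second H3.3 gene, H3.3A, in males that already carried the substitution in H3.3B. The comparison rested on 4 RNA-seq libraries, 2 of each genotype. Of the 15115 genes in the table, 11249 had a mean level of at least 1 RPKM over these 4 libraries and were tested, where RPKM is the read number of a gene scaled to its length in kilobases and to the depth of the library. On the log2(RPKM + 1) scale, which understates differences of genes with low levels, the largest differences were lower levels in double H3.3 K27R males of Lsp1beta, a larval storage protein gene, by 177-fold, and of a small nucleolar RNA from the domino locus, of which 1 read was left in each library. CG30416, with at most 1 read in an H3.3B K27R library, and the stress peptide gene TotA, by 10.3-fold, were higher in double H3.3 K27R males. A total of 35 genes differed at an adjusted p below 0.05, of which 17 were higher and 18 lower in double H3.3 K27R males. Of the 35, 26 (74.3%) lay on chromosome 2, which carried 39.3% of the tested genes with a known place. This chromosome carries H3.3A, and how much of it, or of the other chromosomes, differed in origin between the 2 genotypes is not given.

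Histone H3.3 is the form of H3 that is placed into chromatin outside of DNA replication, at active genes and wherever nucleosomes are exchanged. In Drosophila, H3.3A on chromosome arm 2L and H3.3B on the X chromosome encode the same protein. Lysine 27 is acetylated at active enhancers and promoters and is methylated by Polycomb repressive complex 2 at silent developmental genes, where Polycomb repressive complex 1 binds the methylated tail. Arginine cannot carry either modification, so an animal with the substitution in both genes has no modifiable lysine 27 on H3.3 and keeps it only on the H3 that is made with replication.

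The libraries came from total RNA of whole males at the pharate stage, when the adult is formed but still inside the pupal case, 96 to 108 hours after the puparium formed. Double H3.3 K27R males carried H3.3BK27R on a yw chromosome and were homozygous for H3.3AK27R, H3.3B K27R males carried the yw, H3.3BK27R chromosome alone, and wild type males, with 2 libraries, were yw. The y and w mutations were thus shared by all 3 genotypes and the H3.3B substitution by both mutants. The H3.3A substitution had been made by CRISPR-Cas9 in a strain carrying Cas9 on the X, and the H3.3B substitution in a yw strain carrying Cas9 on chromosome 2. Several independent lines of each allele had been isolated, and which of them were sequenced is not given in the sources used here. The crosses behind the sequenced males are not given in the sources used here. How much of chromosome 2, or of the other chromosomes, differed in origin between the mutants is thus not known. Effects of the H3.3A allele and of the chromosome that carries it cannot be told apart. The labels do not say that replicates came from separate cultures, and p values therefore measure the spread between these libraries, which may be technical. In RNA from whole animals, fewer cells of a type and less RNA per cell cannot be told apart.

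Sequencing was shallow, with totals of 1673661 and 1535941 reads assigned to genes for double H3.3 K27R, 1915687 and 1602741 for H3.3B K27R, and 1591441 and 2118264 for wild type. At this depth a gene of 1 kb with 3 reads had 1.42 to 1.95 RPKM. Between the replicates of 1 genotype, 8.04% of genes differed by more than 2-fold in the double H3.3 K27R pair, 5.96% in the H3.3B K27R pair and 7.2% in the wild type pair, against 8.71% to 11.7% between a double H3.3 K27R and an H3.3B K27R library. Among markers of the animal, 27 testis genes and 26 muscle genes were high enough to be tested. Of the yolk, chorion and vitelline membrane genes of females only Yp3 was, at 2.01 and 1.75 RPKM in double H3.3 K27R males, against 1.75 and 2.51 RPKM in H3.3B K27R males. No female library of this stage was at hand, so low levels of these genes do not settle the sex.

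Differences were tested with limma on log2(RPKM + 1), so that a log2 fold change understates the difference of a gene with a low level. At the study's thresholds, an adjusted p below 0.01 with more than 1 log2 unit of difference either way, 7 genes (0.0622%) were called, 2 of them higher (0.0178%) and 5 lower (0.0444%) in double H3.3 K27R males. At an adjusted p below 0.05, 35 genes (0.311%) passed, 17 higher (0.151%) and 18 lower (0.16%). Without adjustment 1415 genes (12.6%) had a p below 0.05, 845 of them higher and 570 lower. With voom weights on whole reads, an alternative test, 172 of the 11249 genes passed an adjusted p below 0.05, 83 higher and 89 lower. Counts in the gene lists below are to be read against these. Levels did not overlap between the genotypes, meaning that both libraries of 1 genotype lay above both of the other, for 2873 genes that were higher (25.5%) and 2164 that were lower (19.2%) in double H3.3 K27R males. Of these, 370 (3.29%) were higher and 274 (2.44%) lower by more than 2-fold. Levels of 2 against 2 libraries often do not overlap without a difference, since an exact permutation test of 1 gene cannot go below p = 0.333. Over all 11249 genes, log2 fold changes had a median of 0.03.

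The share of genes past 2-fold was higher among the weakest and the most abundant RNAs than between. It was 8.6% of the 3547 genes with a mean of 1 to 5 RPKM, 4.55% of the 4549 genes from 5 to 20 RPKM, 3.06% of the 2447 genes from 20 to 100 RPKM, and 8.07% of the 706 genes from 100 RPKM upwards. Among the most abundant RNAs, 40 were lower and 17 higher in double H3.3 K27R males, and 10 (1.42%) passed an adjusted p below 0.05. In the lowest class, 128 were lower and 177 higher, and 3 (0.0846%) passed.

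**Figure D1:**
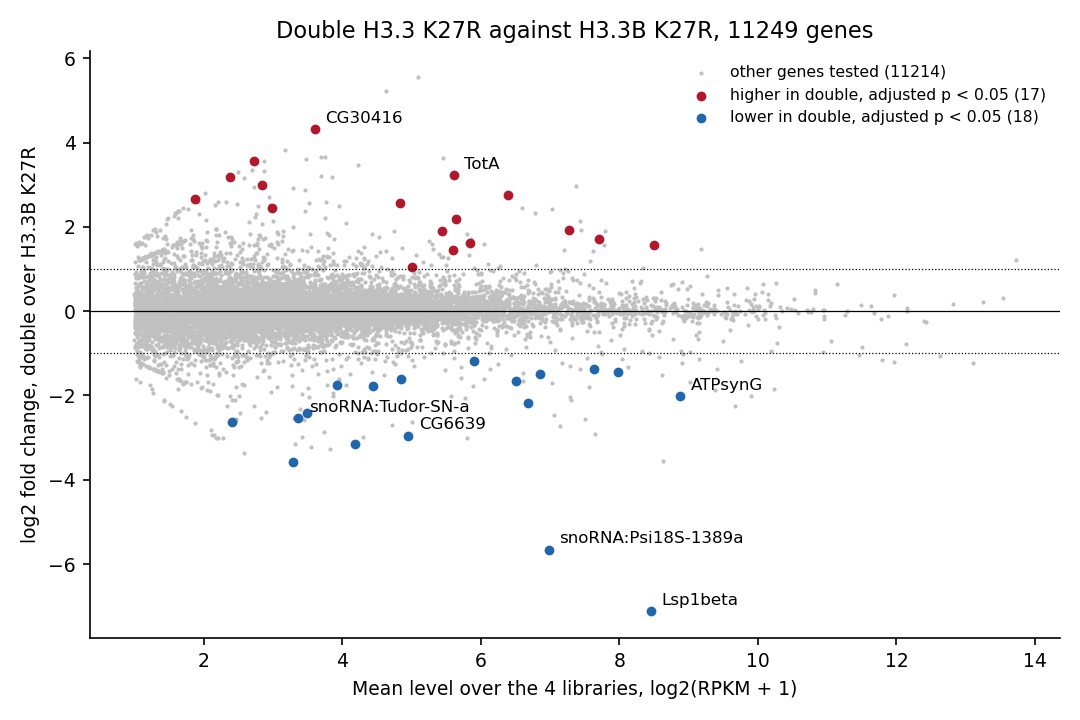
Log2 fold change of double H3.3 K27R over H3.3B K27R (vertical axis) against the mean level over the 4 libraries (horizontal axis, log2(RPKM + 1)), 1 point per gene tested. Red points are the 17 genes higher and blue points the 18 genes lower in double H3.3 K27R males at an adjusted p below 0.05, dotted lines mark 2-fold, and Lsp1beta and snoRNA:Psi18S-1389a lie far below all other points.

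Lsp1beta encodes the beta subunit of larval serum protein 1, a hexamer that the larval fat body secretes into the blood and takes back as an amino acid store for metamorphosis. Its level was 4.36 and 3.50 RPKM in double H3.3 K27R males, against 832 and 557 RPKM in H3.3B K27R males and 575 and 573 RPKM in wild type males. The mean was thus 177-fold lower in double H3.3 K27R males, with a log2 fold change of -7.12 ± 0.20 (SE; limma, adjusted p = 6.94e-05, n = 2). The adjusted p stayed below 0.05 in each of the other 9 settings with all libraries and with each of the 6 libraries left out, but it exceeded the study's threshold of 0.01 without either double H3.3 K27R library (limma, adjusted p at most 0.0221). The gene lies at chr2L:898500-901316 in the BDGP6.54 assembly, about 4154 kb from H3.3A. The other storage protein genes had no such loss. Lsp1alpha had 148 and 256 RPKM in double H3.3 K27R males, against 133 and 101 RPKM in H3.3B K27R males. Lsp1gamma had 671 and 1042 RPKM in double H3.3 K27R males, against 331 and 275 RPKM in H3.3B K27R males (log2 fold change 1.47, limma, adjusted p = 0.0686). Lsp2, the other hexamerin, had 2654 and 2832 RPKM in double H3.3 K27R males, against 1934 and 1574 RPKM in H3.3B K27R males. Of the 9 fat body genes tested, 8 had a positive log2 fold change and only Lsp1beta a negative one, and the median over the 9 was 0.50, which was 0.26 without double H3.3 K27R replicate 2 and 0.30 without H3.3B K27R replicate 2. At an unadjusted p below 0.05, 4 were higher and 1 lower with limma. With voom weights on whole reads, 3 were higher at an adjusted p below 0.05, Lsp1gamma (0.00231), Lsp2 (0.0254) and Tsf1 (0.0488), and 1, Lsp1beta, was lower. Log2 fold changes were 0.50 for Fbp1, which encodes the receptor that takes up the hexamerins, 0.40 for Fbp2 and 0.58 for Tsf1, the iron carrier transferrin 1, and none of these passed with limma on RPKM.

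The other RNA with a loss of this size was snoRNA:Psi18S-1389a, a small nucleolar RNA that guides the conversion of a uridine of 18S ribosomal RNA to pseudouridine and lies within dom, which encodes the chromatin remodelling ATPase Domino. It had 3.76 and 4.10 RPKM in double H3.3 K27R males, or 1 read in each library, against 243 and 251 RPKM in H3.3B K27R males, from 74 and 64 reads, and 174 and 157 RPKM in wild type males. H3.3B K27R libraries thus held 62.9 times as many reads relative to depth, with a 95% counting interval of 17.1 to 525, and the log2 fold change was -5.66 ± 0.11 (SE; limma, adjusted p = 1.7e-05). This gene stayed past the study's thresholds in the 9 other settings with all libraries and with each of the 6 libraries left out (limma, adjusted p at most 0.00428). The host gene did not differ to this extent, with 13.8 and 12.8 RPKM for dom in double H3.3 K27R males, against 15.5 and 15.6 RPKM in H3.3B K27R males (log2 fold change -0.21, limma, adjusted p = 0.629). A second such RNA, snoRNA:Tudor-SN-a, had 1.92 and 2.09 RPKM in double H3.3 K27R males, 1 read in each, against 15.1 and 18.1 RPKM in H3.3B K27R males, 9 reads in each. The read ratio was 8.21 with a 95% interval of 1.97 to 73, and the gene passed the study's thresholds (log2 fold change -2.54, limma, adjusted p = 0.00788). With voom weights it did not pass an adjusted p below 0.05 (limma, adjusted p = 0.12). Its host Tudor-SN, which encodes a nuclease of the RNA silencing complex, had 30.3 and 26 RPKM in double H3.3 K27R males, against 29.2 and 25.1 RPKM in H3.3B K27R males. Another, snoRNA:Psi28S-1175b within the ribosomal protein gene RpS16, passed an adjusted p below 0.05 as higher in double H3.3 K27R males on 2 and 3 reads, against 0 reads in both H3.3B K27R libraries and 2 and 3 reads in wild type, so that no fold is given for it. The host genes were named after their values were seen, because reads of an RNA and of the gene it lies within can be counted for either.

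The remaining genes called lower encode a serine protease homolog and a subunit of the mitochondrial ATP synthase. CG6639, now named SPH93, had 5.27 and 6.97 RPKM in double H3.3 K27R males, against 58.6 and 49.1 RPKM in H3.3B K27R males and 37.6 and 44.6 RPKM in wild type males (log2 fold change -2.95 ± 0.18, limma, adjusted p = 0.0057). The double H3.3 K27R libraries lay far below all 4 others. ATPsynG, the gene for subunit g of ATP synthase, which the table lists under an older symbol, had 182 and 189 RPKM in double H3.3 K27R males, against 739 and 766 RPKM in H3.3B K27R males and 843 and 636 RPKM in wild type males. Its mean was 4.06-fold lower in double H3.3 K27R males (log2 fold change -2.02 ± 0.15, limma, adjusted p = 0.00788). By the mean RPKM over the 4 libraries it was the most abundant of the genes that fell at the study's thresholds, and both genes lie on 2L.

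Several further genes fell at an adjusted p below 0.05 and not at the study's thresholds. CG15818 and CR43304, a long noncoding RNA gene, were nearly absent in double H3.3 K27R males. CG15818 had 0.45 and 0.49 RPKM in double H3.3 K27R males, 1 read in each, against 8.69 and 7.56 RPKM in H3.3B K27R males, a read ratio of 17.3 with an interval of 4.48 to 148. CR43304 had 2.55 and 2.78 RPKM in double H3.3 K27R males, 2 reads in each, against 30.1 and 33.3 RPKM in H3.3B K27R males, a read ratio of 11.9 with an interval of 4.36 to 45.2. CG30196 had 1 and 0 reads in double H3.3 K27R males, against 13 and 16 in H3.3B K27R males (log2 fold change -3.57, limma, adjusted p = 0.0458). For kek2, which encodes a transmembrane protein with leucine-rich repeats, the levels were 1.92 and 3.28 RPKM in double H3.3 K27R males, against 16.2 and 19.6 RPKM in H3.3B K27R males (log2 fold change -2.41, limma, adjusted p = 0.0368). The thiol oxidoreductase gene Grx-1 had 34.6 and 36.6 RPKM in double H3.3 K27R males, against 74.7 and 90.4 RPKM in H3.3B K27R males, a log2 fold change of -1.19 that was the smallest among the genes that fell. CG30457, CG14573, CG3513, CG34196 and CG34211, for which no function is given here, fell by 2.19, 1.65, 1.5, 1.43 and 1.37 on the log2 scale. Cyp6g1, Cyp4e2 and Gld make up the 18 and are given below with their gene groups.

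TotA and CG30416 rose at the study's thresholds. TotA encodes a Turandot peptide that the fat body releases into the blood under stress and that depends on JAK-STAT signalling. Its level was 84.6 and 90.0 RPKM in double H3.3 K27R males, against 7.21 and 9.70 RPKM in H3.3B K27R males and 8.68 and 11.4 RPKM in wild type males. The mean was 10.3-fold higher in double H3.3 K27R males (log2 fold change 3.23 ± 0.20, limma, adjusted p = 0.0057). No other Turandot gene passed with limma on RPKM. TotB, which lies in the same cluster of genes on 3R, had 25 and 26 RPKM in double H3.3 K27R males, against 82.4 and 73.5 RPKM in H3.3B K27R males (log2 fold change -1.57, limma, adjusted p = 0.0918), and passed as lower with voom weights (limma, adjusted p = 0.0249). Of the 6 Turandot genes tested, 3 had positive and 3 negative values. Their median was -0.08, and was 0.48 without double H3.3 K27R replicate 1 and -0.34 without double H3.3 K27R replicate 2. TotX had 1 and 3 reads in double H3.3 K27R males and 0 in both H3.3B K27R libraries, and Stat92E, the transcription factor of the pathway, had 33.6 and 39.9 RPKM in double H3.3 K27R males, against 32.8 and 33.2 RPKM in H3.3B K27R males.

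CG30416 lies on 2R. It had 24.3 and 20.1 RPKM in double H3.3 K27R males, from 75 and 57 reads, against 0 and 0.34 RPKM in H3.3B K27R males, from 0 and 1 reads, and 7.5 and 4.61 RPKM in wild type males. The read ratio was 145 with a 95% interval of 25.5 to 5760, and the log2 fold change was 4.32 ± 0.31 (SE; limma, adjusted p = 0.00788). Both wild type libraries lay between those of the mutants, and no library of a genotype overlapped another genotype.

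Among the genes that rose at an adjusted p below 0.05 was mRpL27, which encodes a protein of the mitochondrial ribosome. Its levels were 84.7 and 85.7 RPKM in double H3.3 K27R males, against 29.7 and 25.1 RPKM in H3.3B K27R males and 30.2 and 26.3 RPKM in wild type males (log2 fold change 1.61 ± 0.14, limma, adjusted p = 0.0169). It lay 595 kb from H3.3A and was the gene nearest to it that passed. CG31820 had 326 and 308 RPKM in double H3.3 K27R males, against 85.4 and 109 RPKM in H3.3B K27R males and 137 and 119 RPKM in wild type males. Arc1, a relative of the mammalian synaptic gene Arc whose protein forms capsids that carry RNA between cells, had 594 and 485 RPKM in double H3.3 K27R males, against 204 and 159 RPKM in H3.3B K27R males and 122 and 119 RPKM in wild type males (log2 fold change 1.57 ± 0.16, limma, adjusted p = 0.0279). It was the most abundant RNA among those that rose. Its neighbour Arc2 had 7 reads in each double H3.3 K27R library, against 2 and 1 in the H3.3B K27R libraries, and did not pass the test.

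Lectin-galC1, a C-type lectin gene, had 73.2 and 88.4 RPKM in double H3.3 K27R males, against 13.8 and 20.6 RPKM in H3.3B K27R males. CG16762 had 136 and 152 RPKM in double H3.3 K27R males, against 14.8 and 28.2 RPKM in H3.3B K27R males and 10.7 and 8.54 RPKM in wild type males (log2 fold change 2.76, limma, adjusted p = 0.0298). Lectin-galC1 lies within Pax, a gene for the adhesion protein paxillin, whose log2 fold change was 0.24. The noncoding RNA genes CG32368 and CR43451 rose by 2.57 and 2.66 on the log2 scale, CG4480 by 2.45 and CG33136 by 1.05. In double H3.3 K27R males CR43451 had 8 reads in each library and CG43647 had 8 and 4, while both genes had 0 reads in both H3.3B K27R libraries, so that they were at least 2.91-fold and at least 2.15-fold higher, against a floor of 3 reads in each library. TwdlD, Drs, Mtk and CG18067 complete the 17 and are described with the cuticle and immune genes.

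**Figure D2:**
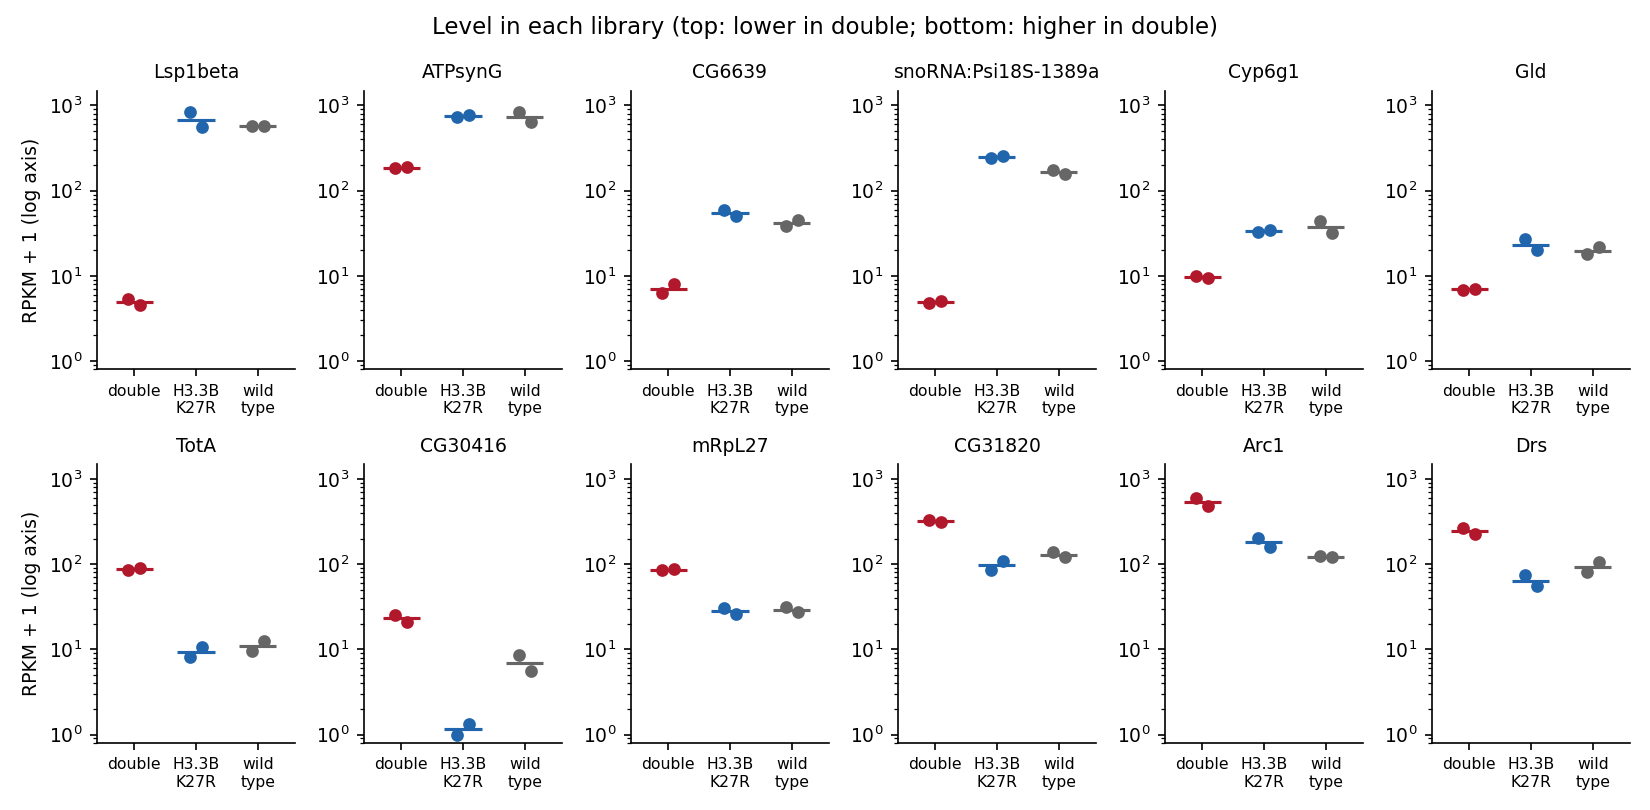
Level in each library (RPKM + 1, log axis) of 6 genes that fell (top) and 6 that rose (bottom) in double H3.3 K27R males at an adjusted p below 0.05. Points are libraries, lines are means on the log scale, and groups run from double H3.3 K27R through H3.3B K27R to wild type. For Lsp1beta the double H3.3 K27R libraries are at 4.36 and 3.50 RPKM and the other 4 between 557 and 832 RPKM, whereas for CG30416 wild type lies between the mutants.

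Genes of the humoral immune response had positive log2 fold changes in most cases. These peptides are released from the fat body when the Toll or Imd pathway is switched on by fungi or bacteria. Of 17 antimicrobial peptide genes tested, 2 rose at an adjusted p below 0.05 and 0 fell, and 8 were past 2-fold with no overlap between the genotypes, all of them higher in double H3.3 K27R males, where over all genes 3.29% were. A total of 16 of the 17 had a positive log2 fold change, and the median was 1.09 against 0.03 over all genes. With limma and no adjustment 7 were higher and 0 lower at a p below 0.05, and with voom weights on whole reads 3 passed as higher and 0 as lower. The antifungal peptide gene Drs had 264 and 225 RPKM in double H3.3 K27R males, against 72.8 and 54.8 RPKM in H3.3B K27R males and 79.6 and 106 RPKM in wild type males (log2 fold change 1.93 ± 0.20, limma, adjusted p = 0.0283). Mtk, which encodes metchnikowin, had 82.5 and 53.5 RPKM in double H3.3 K27R males, against 17.5 and 16.3 RPKM in H3.3B K27R males and 7.03 and 8.81 RPKM in wild type males (log2 fold change 1.91, limma, adjusted p = 0.0425). Both genes were higher in each double H3.3 K27R library than in any of the other 4.

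Other antimicrobial genes had differences of like size with a wider spread. Dro, which encodes drosocin, had 96.2 and 231 RPKM in double H3.3 K27R males, against 29.6 and 23.9 RPKM in H3.3B K27R males (log2 fold change 2.44, limma, adjusted p = 0.14). AttA and AttC, attacin genes, had 6 and 10 reads and 20 and 11 reads in double H3.3 K27R males, against 1 and 0 reads and 2 and 0 reads in H3.3B K27R males. AttD, with at most 5 reads in any library, was the only member with a negative value, at -0.65. The summed level of the list was 678 and 799 RPKM in double H3.3 K27R males, against 262 and 199 RPKM in H3.3B K27R males and 176 and 243 RPKM in wild type males, so that the double H3.3 K27R libraries stood apart from all others.

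The Bomanins and other immune-induced peptides, short secreted products of Toll signalling, showed the same direction and no call. Of 12 tested, 0 passed an adjusted p below 0.05 with limma, while 8 were higher and 1 lower at an unadjusted p below 0.05, and 1, IM3, passed with voom weights. Their median was 1.37, and 0.80 without double H3.3 K27R replicate 1. Past 2-fold with no overlap, 6 were higher (50%, against 3.29% of all genes) and 1 lower (8.33%, against 2.44%). IM3 (now BomS3) had 408 and 185 RPKM in double H3.3 K27R males, against 40.0 and 29.1 RPKM in H3.3B K27R males and 88.0 and 42.5 RPKM in wild type males (log2 fold change 2.97, limma, adjusted p = 0.0775). IM2 (now BomS2) had 28.9 and 15.8 RPKM in double H3.3 K27R males, against 4.21 and 1.68 RPKM in H3.3B K27R males. The exception was CG18107 (now BomS4), with 0 and 1 reads in double H3.3 K27R males, against 5 and 11 reads in H3.3B K27R males. Unlike for the antimicrobial peptides, wild type replicate 1 overlapped the double H3.3 K27R libraries in the summed level, which was 1098 and 856 RPKM in double H3.3 K27R males, against 327 and 366 RPKM in H3.3B K27R males and 894 and 439 RPKM in wild type males. CG16712 carried much of this spread, with 201 and 351 RPKM in double H3.3 K27R males, against 75.0 and 63.8 RPKM in H3.3B K27R males and 578 and 207 RPKM in wild type males. CG18067, known as bombardier and needed for short Bomanins to appear in the blood, did pass, with 68.3 and 72.0 RPKM in double H3.3 K27R males, against 28.5 and 21.7 RPKM in H3.3B K27R males and 43.7 and 40.5 RPKM in wild type males (log2 fold change 1.46, limma, adjusted p = 0.032).

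Upstream genes of these pathways differed less. Of 34 immune signalling genes tested 0 passed an adjusted p below 0.05 with limma. Without adjustment 8 were higher and 0 lower, where 845 and 570 of all 11249 genes were. With voom weights 2 were higher, while the median was 0.24 (0.14 without H3.3B K27R replicate 1) and 27 values were positive. The largest were for PGRP-SC2, an amidase that degrades peptidoglycan, with 36.6 and 45.8 RPKM in double H3.3 K27R males, against 8.47 and 12.4 RPKM in H3.3B K27R males, and for spz, the Toll ligand, with 17.7 and 26.7 RPKM in double H3.3 K27R males, against 9.05 and 8.97 RPKM in H3.3B K27R males and 21.0 and 16.0 RPKM in wild type males. Rel, the transcription factor of the Imd pathway, had a log2 fold change of 0.51. Blood cell genes went both ways, with a median of 0.07 over 8 genes: nimC1, a phagocytosis receptor, was at 3.61 and 3.09 RPKM in double H3.3 K27R males, against 0.68 and 0.81 RPKM in H3.3B K27R males, whereas Pxn, peroxidasin, was at 15.3 and 12.1 RPKM in double H3.3 K27R males, against 24.9 and 25.3 RPKM in H3.3B K27R males. Of the hemocyte genes 0 passed the adjusted p with limma, 1 was higher and 1 lower without adjustment (12.6% of all genes were higher or lower), and 1 was lower with voom weights. Small heat shock genes went both ways: Hsp23 had 234 and 297 RPKM in double H3.3 K27R males, against 128 and 105 RPKM in H3.3B K27R males (limma, adjusted p = 0.0622), while l(2)efl had 132 and 116 RPKM in double H3.3 K27R males, against 192 and 194 RPKM in H3.3B K27R males, and the median of 15 heat shock and chaperone genes was 0.06.

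**Figure D3:**
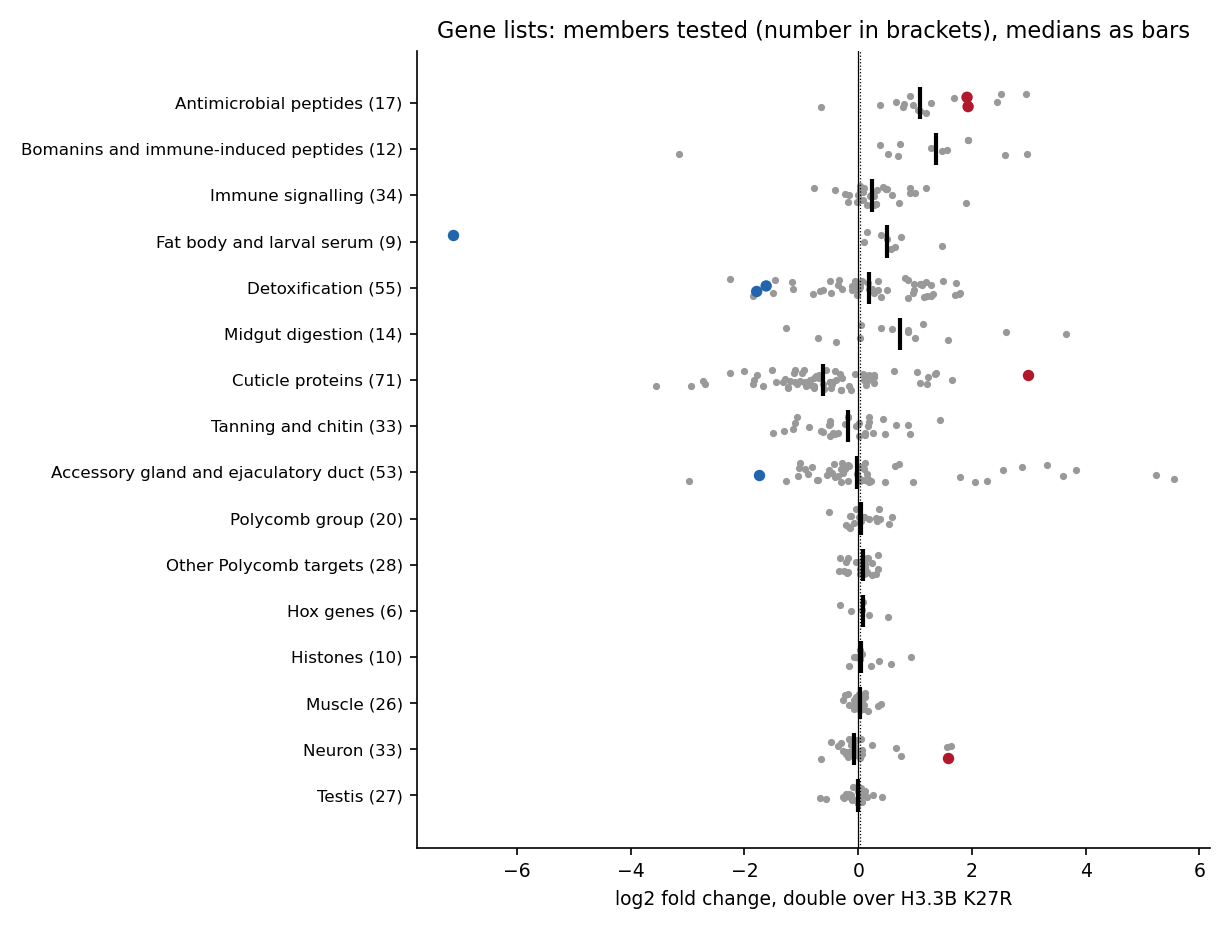
Log2 fold change of double H3.3 K27R over H3.3B K27R for the tested members of 16 gene lists, 1 point per gene, with the number tested in brackets. Thick bars are medians, the dotted line is the median over all genes, and red and blue points are genes higher and lower in double H3.3 K27R males at an adjusted p below 0.05. Antimicrobial peptides and Bomanins have medians of 1.09 and 1.37, cuticle proteins -0.62, and the Polycomb group, Hox, muscle and testis lists lie close to 0.

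Cuticle protein genes had mostly negative log2 fold changes. The epidermis of the pharate adult secretes and then tans the adult cuticle, and these RNAs are abundant for short windows. Of 71 tested, 21 (29.6%, against 2.44% of all genes) were past 2-fold with no overlap and lower in double H3.3 K27R males and 7 (9.86%, against 3.29%) were past 2-fold and higher, 52 had a negative log2 fold change and the median was -0.62. At an adjusted p below 0.05, 1 rose and 0 fell with limma, although 27 were lower and 4 higher at an unadjusted p below 0.05, where 12.6% of all genes were lower or higher, and 13 were lower and 1 higher with voom weights. The one that rose was TwdlD, of the Tweedle family, with 10.5 and 12.8 RPKM in double H3.3 K27R males, from 17 and 19 reads, against 0.54 and 0.65 RPKM in H3.3B K27R males, from 1 read each (read ratio 19.7, 95% interval 5.08 to 169, limma, adjusted p = 0.0274). Cpr30B had 109 and 32.1 RPKM in double H3.3 K27R males, against 868 and 579 RPKM in H3.3B K27R males and 163 and 701 RPKM in wild type males (log2 fold change -3.56, limma, adjusted p = 0.143). Cpr76Bb had 58.1 and 21.1 RPKM in double H3.3 K27R males, against 261 and 219 RPKM in H3.3B K27R males and 122 and 236 RPKM in wild type males. Lcp2, a larval cuticle gene, had 0 reads in both double H3.3 K27R libraries, against 10 and 7 reads in H3.3B K27R males, which makes it at least 2.56-fold lower. For Cpr30B and Cpr76Bb the replicates were far apart in double H3.3 K27R males and in wild type males, and wild type replicate 1 lay nearer to the double H3.3 K27R libraries than wild type replicate 2 did.

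The size of the cuticle difference depended on the library. The summed level was 18860 and 11670 RPKM in double H3.3 K27R males, against 30830 and 26900 RPKM in H3.3B K27R males and 16570 and 24830 RPKM in wild type males. Without double H3.3 K27R replicate 2, 11 genes were past 2-fold and lower, 4 were past 2-fold and higher and the median was -0.25, whereas without double H3.3 K27R replicate 1 these values were 34, 8 and -0.92. Such counts rise in general without a library, since 1 library overlaps less easily than 2. Over all genes 339 were lower and 440 higher without replicate 2, and 490 and 610 without replicate 1, against 274 and 370 with all libraries. The libraries with the lowest cuticle sums, double H3.3 K27R replicate 2 and wild type replicate 1, had the highest levels of ple. The tyrosine hydroxylase gene ple, which starts the synthesis of tanning precursors, had 1162 and 1870 RPKM in double H3.3 K27R males, against 930 and 927 RPKM in H3.3B K27R males and 2093 and 1141 RPKM in wild type males. Of 33 tanning and chitin genes, 5 (15.2%, against 2.44% of all genes) were past 2-fold and lower and 1 (3.03%, against 3.29%) past 2-fold and higher. Their median was -0.18, and was -0.34 without double H3.3 K27R replicate 1 and -0.10 without double H3.3 K27R replicate 2. None of the 33 passed an adjusted p below 0.05 with limma, 3 were higher and 6 lower without adjustment, and 3 were lower with voom weights. The chitinase gene Cht5 had 8.73 and 9.82 RPKM in double H3.3 K27R males, against 25.6 and 18.2 RPKM in H3.3B K27R males, and yellow-c had 34.5 and 25.6 RPKM in double H3.3 K27R males, against 66.8 and 64.7 RPKM in H3.3B K27R males (limma, adjusted p = 0.0671).

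Seminal fluid genes showed the same libraries standing apart. They are switched on in the accessory gland and ejaculatory duct around eclosion. Sfp60F had 18.0 and 114 RPKM in double H3.3 K27R males, against 0 RPKM in both H3.3B K27R libraries and 151 and 29.6 RPKM in wild type males, and was at least 15.3-fold higher in double H3.3 K27R than in H3.3B K27R males, against the same floor of 3 reads in each library. Sfp87B, with 16.6 and 78.9 RPKM in double H3.3 K27R males, 0 in H3.3B K27R males and 154 and 22.7 RPKM in wild type males, and Sfp24Bb, with 6.55 and 25.7 RPKM in double H3.3 K27R males, 0 in H3.3B K27R males and 127 and 31.1 RPKM in wild type males, were likewise at 0 reads in H3.3B K27R males alone. Double H3.3 K27R replicate 2 and wild type replicate 1 were the high libraries of their pairs in each case, and none of these 3 genes passed the test. Peb, a protein of the ejaculatory bulb, had 19 and 76 reads in double H3.3 K27R males, against 1 read in each H3.3B K27R library. Sfp26Ad went the other way, with 1.05 and 7.98 RPKM in double H3.3 K27R males, against 32.9 and 32.8 RPKM in H3.3B K27R males and 49.5 and 41.3 RPKM in wild type males. Over the 53 genes of this list tested, 10 (18.9%, against 3.29% of all genes) were past 2-fold and higher and 5 (9.43%, against 2.44%) past 2-fold and lower, and the median was -0.02. The balance turned with the library, with 14 higher, 5 lower and a median of 0.16 without double H3.3 K27R replicate 1, and 9 higher, 10 lower and a median of -0.24 without double H3.3 K27R replicate 2. Over all genes 610 were higher and 490 lower without replicate 1, and 440 and 339 without replicate 2. Only Gld passed an adjusted p below 0.05 with limma, where 11 genes were higher and 7 lower without adjustment and 2 were lower with voom weights. It encodes glucose dehydrogenase, an enzyme of the ejaculatory duct and of the developing cuticle, and had 5.78 and 6.07 RPKM in double H3.3 K27R males, against 26 and 19 RPKM in H3.3B K27R males and 16.9 and 20.9 RPKM in wild type males (log2 fold change -1.75 ± 0.21, limma, adjusted p = 0.0422). All libraries were collected in the same window, so that the stage of each pool within it is not known, and its part in the cuticle, tanning and seminal fluid values was not tested.

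**Figure D4:**
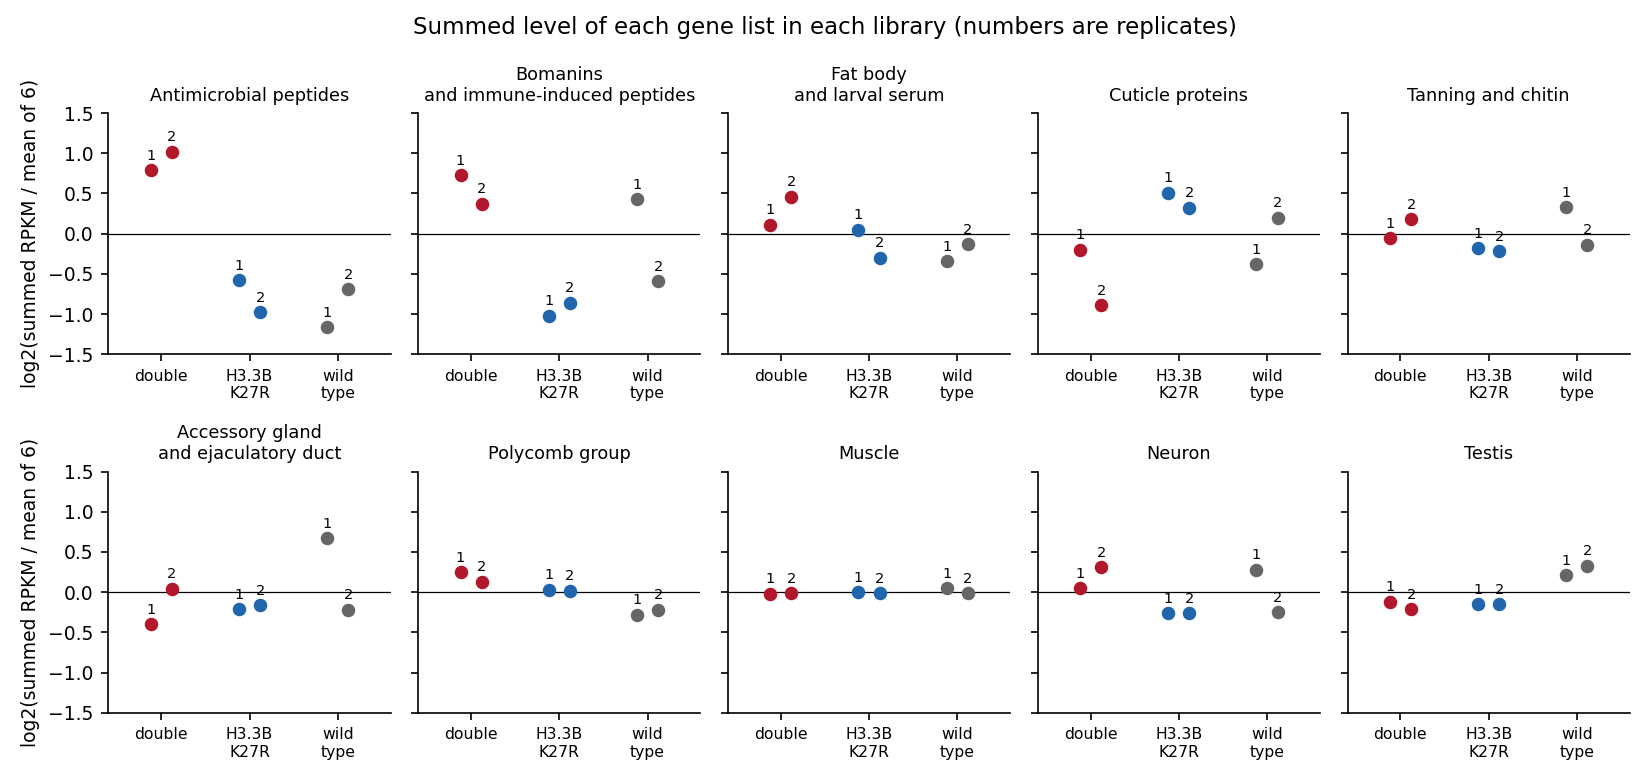
Summed RPKM of 10 gene lists in each library, as log2 of the ratio to the mean of the 6 libraries, with the replicate number above each point and genotypes running from double H3.3 K27R through H3.3B K27R to wild type. The antimicrobial peptides separate the double H3.3 K27R libraries from the other 4, cuticle proteins spread widely between the replicates of double H3.3 K27R and of wild type, and muscle is level across all 6.

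Detoxification genes had log2 fold changes of both signs. Of 55 tested, 2 fell and 0 rose at an adjusted p below 0.05 with limma, 17 were higher and 8 lower without adjustment, and 7 were higher and 2 lower with voom weights. Past 2-fold with no overlap, 14 were higher (25.5%, against 3.29% of all genes) and 8 lower (14.5%, against 2.44%). The median was 0.19, and was 0.12 without double H3.3 K27R replicate 1 and 0.32 without H3.3B K27R replicate 2. Both genes that fell encode cytochrome P450 enzymes on 2R. Cyp6g1, known for insecticide resistance, had 8.97 and 8.51 RPKM in double H3.3 K27R males, against 31.4 and 33.8 RPKM in H3.3B K27R males and 42.9 and 31.1 RPKM in wild type males (log2 fold change -1.79 ± 0.18, limma, adjusted p = 0.0283). Cyp4e2 had 11 and 15.7 RPKM in double H3.3 K27R males, against 40.0 and 45.0 RPKM in H3.3B K27R males and 33.7 and 33.0 RPKM in wild type males. Cyp6a2 was low as well, with 0.36 and 1.17 RPKM in double H3.3 K27R males, against 9.04 and 5.59 RPKM in H3.3B K27R males (limma, adjusted p = 0.0969). In the other direction, the neighbouring genes Cyp309a1 and Cyp309a2 had 22.1 and 20.9 RPKM and 24.9 and 21.5 RPKM in double H3.3 K27R males, against 5.75 and 5.94 RPKM and 9.06 and 8.80 RPKM in H3.3B K27R males. Cyp6a18 had 11 and 8.64 RPKM in double H3.3 K27R males, against 1.51 and 2.88 RPKM in H3.3B K27R males. Summed over the list, the level was 2725 and 2776 RPKM in double H3.3 K27R males, against 2693 and 2632 RPKM in H3.3B K27R males.

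Of 14 digestive genes of the midgut tested, 4 (28.6%, against 3.29% of all genes) were past 2-fold and higher and 1 (7.14%, against 2.44%) past 2-fold and lower. Their median was 0.73, and was 0.18 without double H3.3 K27R replicate 2, while the number past 2-fold and higher was 7 without double H3.3 K27R replicate 1. Over all genes that number rose as well, from 370 with all libraries to 610 without double H3.3 K27R replicate 1. LysP, a lysozyme gene, had 17.5 and 29.6 RPKM in double H3.3 K27R males, against 2.55 and 0 RPKM in H3.3B K27R males (limma, adjusted p = 0.0995). None of the midgut genes passed with limma, 5 were higher and 0 lower without adjustment, and 1 was higher with voom weights. The medians of muscle (26 genes), testis (27 genes), neuron (33 genes) and photoreceptor (22 genes) lists were 0.02, 0.00, -0.07 and 0.08. In these 4 lists Arc1 alone passed. At an unadjusted p below 0.05, where 12.6% of all genes were, limma gave 1 muscle and 3 neuronal genes, all higher, and 0 testis genes. Of the 22 photoreceptor genes, 7 were higher and 2 lower at that p. In the photoreceptor list 45.5% did not overlap and were higher, against 25.5% of all genes, and 18.2% were lower, against 19.2%. With voom weights 0 muscle, 0 testis, 2 neuronal and 2 photoreceptor genes passed. The summed muscle level was 40990 and 41150 RPKM in double H3.3 K27R males, against 41540 and 41120 RPKM in H3.3B K27R males. Pdh, a dehydrogenase of the retina, stood apart from its list with 27.2 and 36.5 RPKM in double H3.3 K27R males, against 98.3 and 97.7 RPKM in H3.3B K27R males and 85.1 and 121 RPKM in wild type males (log2 fold change -1.61, limma, adjusted p = 0.053), while the main opsin gene ninaE had 1008 and 1027 RPKM in double H3.3 K27R males, against 824 and 901 RPKM in H3.3B K27R males. Nplp4, a neuropeptide-like gene, had 325 and 331 RPKM in double H3.3 K27R males, against 104 and 117 RPKM in H3.3B K27R males (log2 fold change 1.56, limma, adjusted p = 0.0631).

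Genes of the Polycomb system differed little between the mutants. Of 20 Polycomb group genes tested, 0 were past 2-fold and 0 passed the adjusted p with limma. A total of 2 were higher and 0 lower at an unadjusted p below 0.05, where 12.6% of all genes were higher or lower. With voom weights 1 passed, and the median was 0.05. The gene that passed with voom weights was Su(z)2, a close relative of the Polycomb repressive complex 1 subunit gene Psc, with an adjusted p of 0.0312, where adjusted p values over all other settings reached 0.563 and limma on RPKM gave 0.177. It had 39.4 and 38.1 RPKM in double H3.3 K27R males, against 24.3 and 26.7 RPKM in H3.3B K27R males and 9.79 and 11.4 RPKM in wild type males. Psc had 24.4 and 20.9 RPKM in double H3.3 K27R males, against 17.7 and 18.4 RPKM in H3.3B K27R males and 6.07 and 7.23 RPKM in wild type males (log2 fold change 0.31, limma, adjusted p = 0.526). For both genes the libraries of the 3 genotypes did not overlap, and double H3.3 K27R was highest and wild type lowest. The DNA-binding factor gene pho had 15.8 and 16.1 RPKM in double H3.3 K27R males, against 9.21 and 12.3 RPKM in H3.3B K27R males, and escl, with the lowest value of the list, had 4 and 2 reads in double H3.3 K27R males, against 7 and 5 reads in H3.3B K27R males.

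Homeotic genes, the best known genes under Polycomb silencing, had log2 fold changes from -0.32 for Ubx to 0.53 for Antp over the 6 tested. Antp had 5.81 and 6.68 RPKM in double H3.3 K27R males, against 3.96 and 4.07 RPKM in H3.3B K27R males and 4.77 and 5.09 RPKM in wild type males. Ubx had 2.93 and 3.92 RPKM in double H3.3 K27R males, against 4.66 and 4.32 RPKM in H3.3B K27R males. The values of 28 other target genes lay between -0.33 and 0.35, with 20 of 28 positive and a median of 0.08. Of the 21 trithorax group genes, 8 did not overlap between the genotypes and were higher in double H3.3 K27R males and 0 did so as lower, where 25.5% and 19.2% of all genes did, and their median was 0.07. With limma 0 genes of these 3 lists passed the adjusted p. Without adjustment, where 12.6% of all genes were higher or lower, 1 homeotic gene was higher, and 0 of the other targets and 0 of the trithorax genes were. With voom weights 0 passed in each list.

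RNA levels of the H3.3 genes themselves did not differ at an adjusted p below 0.05 with limma. Log2 fold changes were 0.072 ± 0.244 (SE) for His3.3A and -0.068 ± 0.105 for His3.3B. His3.3A had 52.5 and 58.5 RPKM in double H3.3 K27R males, in which it carried the substitution, against 63.6 and 43.6 RPKM in H3.3B K27R males, in which it did not, and 40.8 and 60.8 RPKM in wild type males. His3.3B, mutant in both, had 121 and 114 RPKM in double H3.3 K27R males, against 121 and 126 RPKM in H3.3B K27R males. Since the deposited values carry no base calls, these levels do not show which allele was present. Replication-coupled histone RNAs, counted on a single annotated copy of each gene, had the following levels. His3 had 35.8 and 51.5 RPKM in double H3.3 K27R males, against 16.7 and 29.3 RPKM in H3.3B K27R males (log2 fold change 0.92, limma, adjusted p = 0.303), and His2B had 86.1 and 78.6 RPKM in double H3.3 K27R males, against 56.4 and 52.8 RPKM in H3.3B K27R males. Of 10 histone genes 4 (40%, against 25.5% of all genes) did not overlap and were higher and 0 (against 19.2%) were lower, 0 passed the adjusted p with limma, 3 were higher without adjustment and 0 passed with voom weights. The median was 0.05. Of 12 genes for the deposition of H3.3, 1 was lower without adjustment, and of 7 dosage compensation genes 0 were, with medians of -0.02 and -0.04 and 0 passing with limma or voom weights.

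Further lists held no gene at an adjusted p below 0.05 with limma. Of 26 genes of ecdysone signalling and timing, 2 (7.69%, against 2.44% of all genes) were past 2-fold and lower. Without adjustment, where 12.6% of all genes had a p below 0.05, 1 was higher and 2 lower. With voom weights 0 passed, and the median was -0.09. Of 12 circadian genes 1 was higher without adjustment and 0 passed with voom weights, with a median of -0.11. Of 15 genes for eye pigment and body colour 2 were lower without adjustment and 0 passed with voom weights, with a median of -0.16. Not overlapping and lower were 38.5%, 41.7% and 40% of these 3 lists, against 19.2% of all genes. Not overlapping and higher were 23.1%, 8.33% and 6.67%, against 25.5%. Several genes differ strongly between wild type and both mutants and not between the mutants. CR40469, a noncoding RNA gene, had 3 and 4 reads in double H3.3 K27R males and 5 and 4 reads in H3.3B K27R males, against 282 and 422 reads in wild type males. Muc4B had 10.4 and 11.7 RPKM in double H3.3 K27R males and 10.4 and 9.69 RPKM in H3.3B K27R males, and 0 in wild type males, and CG9509 had 31.5 and 38.7 RPKM in double H3.3 K27R males and 35.3 and 33.9 RPKM in H3.3B K27R males, against 11.3 and 12.3 RPKM in wild type males. The last 3 genes lie on the X, which both mutants share with H3.3BK27R. For CG11370 and CG9029 the levels of double H3.3 K27R males lay farther from wild type than those of H3.3B K27R males. CG11370 had 101 and 74.3 RPKM in double H3.3 K27R males, against 25.7 and 25.9 RPKM in H3.3B K27R males and 3.33 and 1.07 RPKM in wild type males (limma, adjusted p = 0.124). CG9029 had 37.3 and 67.7 RPKM in double H3.3 K27R males, against 149 and 132 RPKM in H3.3B K27R males and 449 and 421 RPKM in wild type males (limma, adjusted p = 0.0969).

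Wild type levels show where the 35 genes that passed stood in yw males, which carried neither substitution. These males were not of the injected strains, so their levels also hold any difference of strain. Wild type was nearer to H3.3B K27R than to double H3.3 K27R for 29 of them, 11 of the 17 that rose and all 18 that fell. Double H3.3 K27R males did not overlap wild type for 34 genes, in the same direction as against H3.3B K27R males, and snoRNA:Psi28S-1175b was the exception. Wild type was nearer to double H3.3 K27R for the other 6, CG18067, CG30416, CG33136, CG4480, CR43451 and snoRNA:Psi28S-1175b, all of which were lowest in H3.3B K27R males. For 22 genes H3.3B K27R did not overlap wild type and lay on the other side of wild type from double H3.3 K27R, for 7 it overlapped wild type and for 6 it lay on the same side as double H3.3 K27R. These counts share the double H3.3 K27R and H3.3B K27R libraries that chose the genes, and are given as a description.

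Genes that passed with limma on RPKM were more frequent on chromosome 2, which carried the H3.3A substitution in double H3.3 K27R males. Chromosome 2 held 26 of its 4336 tested genes (0.6%) at an adjusted p below 0.05, 15 of them on 2R and 11 on 2L, against 9 of 6700 genes (0.134%) on chromosomes 3, 4 and X. It carried 39.3% of the tested genes with a known place, 51.5% of those past 2-fold with no overlap and 74.3% of the 35. Past 2-fold were 7.51% of genes on 2L, 7.48% on 2R, 6.15% on 3L, 4.38% on 3R and 3.08% on X. On X 0 of 1755 genes passed with limma, 125 had an unadjusted p below 0.05 and 9 passed with voom weights. On chromosome 4 0 of 84 passed, with 2 and 0 by the same counts. Over all 11249 genes 1415 (12.6%) had an unadjusted p below 0.05, and 172 passed with voom weights. With those weights 48 of 2064 genes passed on 2L, 44 of 2272 on 2R, 42 of 2145 on 3L and 25 of 2716 on 3R. By that count 3L stood close to 2R. The spread of log2 fold changes was widest on chromosome 2, with an SD of 0.65, against 0.53 on chromosome 3 and 0.43 on X. The share of past 2-fold genes on chromosome 2 was 46.3% without double H3.3 K27R replicate 1 and 46.4% without H3.3B K27R replicate 1. No test over genes was made, since genes are not replicates.

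On 2L as a whole, 0.533% of genes passed with limma and 7.51% were past 2-fold with no overlap. Of 65 genes within 250 kb of H3.3A, 0 passed and 3 (4.62%) were past 2-fold. At the share of the whole arm, 0 among 65 genes cannot be told from the rest of 2L. Of 199 within 1 Mb, 1 passed (0.503%), mRpL27. Of 856 at 1 to 5 Mb 3 passed (0.35%), and of 1009 farther away 7 passed (0.694%). Most genes that passed stood alone, but CG6639 and CR43304, which both fell, lay 85.9 kb apart on 2L, and snoRNA:Psi28S-1175b and CG30196 lay 47.4 kb apart on 2R and went in opposite directions.

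**Figure D5:**
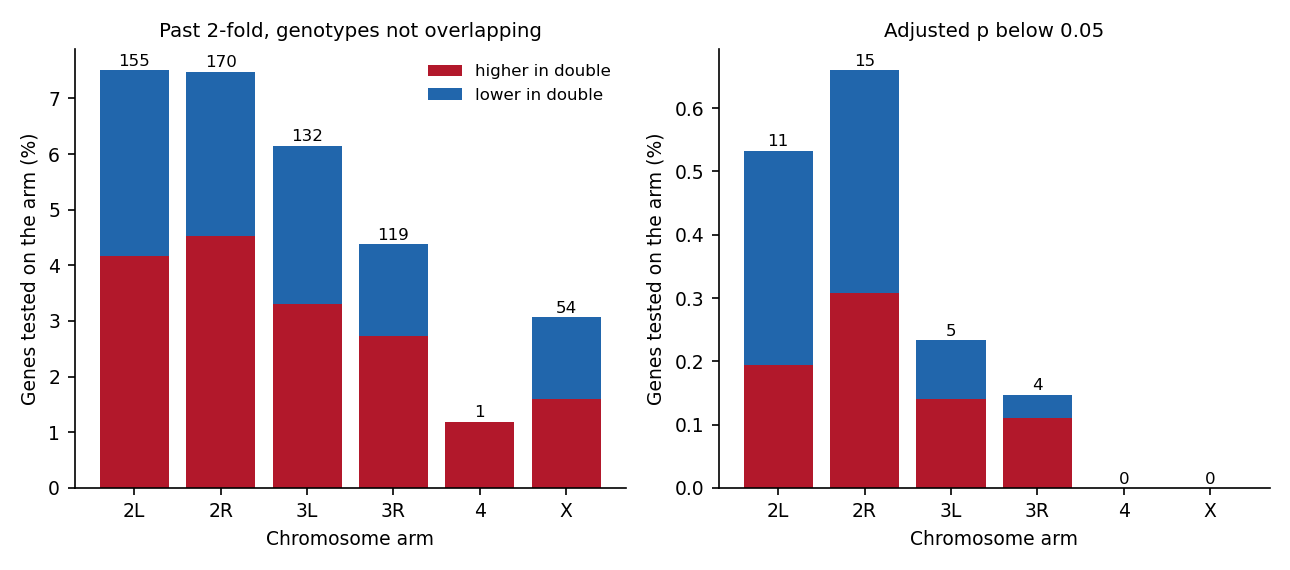
Share of tested genes on each chromosome arm (percent) that were past 2-fold with no overlap between double H3.3 K27R and H3.3B K27R (left) and that passed an adjusted p below 0.05 (right), split into genes higher (red) and lower (blue) in double H3.3 K27R males, with gene counts above the bars. Both arms of chromosome 2 are highest in each panel, with 11 and 15 genes in the right one, and X and 4 have 0 there.

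The 35 genes rest on few libraries and often on few reads. Over the 4 libraries they had 5 to 6509 reads, with a median of 253, and 10 of them had at most 3 reads in each library of 1 genotype. All 35 kept their direction wherever they were tested in the 9 other settings with all libraries and the 6 with 1 library left out, and Lsp1beta and snoRNA:Psi18S-1389a alone passed an adjusted p below 0.05 in every one, while CG30416, CG6639 and TotA passed in the 9 with all libraries. The count at that threshold was 15 without either wild type library, 2 without either H3.3B K27R library, and 2 and 3 without double H3.3 K27R replicate 1 and 2. Reads of overlapping genes cannot be told apart, since the strand setting of the counting is not given in the sources used here. This applies to CG6639 with CG5050, CG31820 with beat-Ic, kek2 with Mst33A and spag4, Cyp6g1 with Cyp6g2, Mtk with CG43729 and CG34211 with CR44130, and how reads shared between near-identical copies, such as the attacin and lysozyme genes, were counted is likewise not given.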

How the data were processed

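RNA was measured by RNA-seq in 6 libraries of whole male pharate adults, 2 for each of 3 genotypes, and the 4 libraries of double H3.3 K27R and H3.3B K27R males were compared. Per the labels and the study's methods, total RNA was made into libraries with a NuGen Ovation kit and sequenced on a MiSeq. The authors mapped reads with STAR 2.5.2b to a dm3 genome in which each replication-dependent histone gene was kept as a single annotated copy, handled alignments with SAMtools 1.3.1, counted reads per gene with Subread 1.28.1 and merged technical runs of H3.3B K27R replicate 1. The deposited RPKM values are read numbers scaled by the authors' R script to gene length in kilobases and to the reads on genes of each library. Collapsing the histone genes makes their RPKM a sum over the copies, set against the length of 1. DESeq2 1.18.1 is named in the submitters' notes, and the columns holding the authors' fold changes and p-values were not used.

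All 73342 RPKM values above 0 were whole multiples of 1 read within a tolerance of 1e-06 (100%), so that read numbers could be recovered. They served for read numbers in the text, for 95% exact counting intervals and a floor of 3 reads, which cover counting error only, and for an alternative test. Genes with a mean of at least 1 RPKM over the 4 libraries were kept (11249 of 15115). The 3866 others had at most 30 reads in any of the 4 libraries. The study's thresholds were applied to limma 3.58.1 (R 4.3.3), using lmFit and then eBayes (trend = TRUE) on log2(RPKM + 1) over all 6 libraries and the contrast double minus H3.3B K27R. P values were adjusted by Benjamini-Hochberg over all genes tested. An exact permutation test of 2 against 2 libraries cannot go below p = 0.333. Names and places came from the BDGP6.54 annotation, in which 11702 genes matched by current and 3067 by older symbols and 346 did not match. Coordinates are those of that assembly, not of dm3. Tables were made with Python 3.11.15, pandas 2.3.3 and numpy 2.4.6.

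Named genes were those called at the study's thresholds, then those with the largest log2 fold changes at an adjusted p below 0.05 with no overlap until 10 stood in each direction, the histone, Psc, Su(z)2 and 5 other genes set beforehand, and in each of 27 lists the members that passed with up to 4 others by size of the log2 fold change. The remaining genes among the 35, the host genes of the small nucleolar RNAs, Pax, Fbp1, Fbp2, AttD, Rel, Stat92E, ninaE, Cyp309a1, Cyp309a2, yellow-c and Sfp26Ad were named after their values were seen. The genes and lists were chosen with earlier results of these data known. A total of 15 other settings were tried.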

Additional observations from a re-analysis of the deposited data

How the results depend on the processing

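The number of genes called at the study's thresholds was 7, and 35 at an adjusted p below 0.05 with no threshold on the fold change. The 7 became 4 without a filter on low values, 3 with only the 4 libraries compared, 2 with eBayes without a trend and 41 with voom weights on recovered reads. The 35 became 54 with a pseudocount of 0.1, 18 with only the 4 libraries compared, 16 with eBayes without a trend and 172 with voom weights. Without 1 library, these counts ranged from 1 to 3 and from 2 to 15. With the replicate block, they were 2 and 15. Whether same-numbered libraries were prepared together is not given in the labels. Deviations of same-numbered libraries correlated at 0.00889 between double and H3.3B K27R, -0.21 between double K27R and wild type and 0.02 between H3.3B K27R and wild type. These values cannot decide it, since libraries prepared together need not deviate alike. Of the 35 genes, 30 also passed with voom weights, 14 with only the 4 libraries, 13 with the block and 10 without a trend. The causes of these shifts were not tested. The share of genes past 2-fold that lay on chromosome 2 was 51.5%, and ranged from 46.3% to 52.4% without 1 library. Among the genes named in the text, 5 had log2 fold changes that changed sign. CG9509 was at -0.05 after quantile normalization and -0.04 after median centring, and ranged from -0.13 to 0.16 without 1 library. Tudor-SN was at -0.003 after median centring and ranged from -0.06 to 0.16, His3.3A from -0.19 to 0.34, with -0.005 without double H3.3 K27R replicate 2, CR40469 from -0.46 to 0.03 and Yp3 from -0.29 to 0.06. Depth limits the weakly expressed genes, since 3 reads on a gene of 1 kb are 1.42 to 1.95 RPKM.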
